A study of Arabidopsis thaliana with 9 samples.

Results

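The comparison set seedlings of the jmj24 mutant against wild-type seedlings of Arabidopsis thaliana, accession Col-0, and asked which well-expressed transcripts depend on an intact JMJ24 gene. It used 6 of the 9 ATH1 microarrays of the series, 3 titled jmj24 and 3 titled WT, and the other 3 came from a line that carries JMJ24 under the 35S promoter (35S::JMJ24). The jmj24 plants came from a stock centre as a single mutant line of At1g09060. The 35S::JMJ24 plants came from Agrobacterium-mediated transformation, and the 35S promoter of a plant virus drives transcription in most tissues. The extraction protocol gives an age of 9 days and the growth protocol one of 10 to 14 days, on soil or on plates with glucose. No source used here says whether the replicates were separate cultures, and p-values here reflect only how far these arrays differ among themselves, which may be technical variation.

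JMJ24 encodes a jumonji protein. Jumonji proteins are best known as enzymes that take methyl groups off histones, and the relative IBM1 is known to keep such silencing marks off the bodies of active genes. JMJ24 itself is described in the title of the series as a protein with ubiquitin ligase and histone binding activities that acts on transposon silencing. Seedlings hold green cotyledons and leaves, a stem-like hypocotyl and a root, and a transcript level from whole seedlings is a mean over all of these cells. In such bulk samples fewer cells of a type and less RNA per cell cannot be told apart.

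A probe set is the group of short array probes that together measure one transcript, and its level was read as a log2 value from its range, since no source used here states the scale. A probe set was called when its limma test gave an adjusted p under 0.05, with Benjamini-Hochberg adjustment over all 22746 probe sets. It was counted as bright when the higher of the 2 group means was above 6. The brightest of 27 bacterial control probe sets had a mean of 5.80. Of the tested probe sets, 16517 were bright. The targeted gene could not be checked, because the annotation used here pairs no probe set with JMJ24.

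In the jmj24 mutant falls outnumbered rises among bright transcripts. Of the 16517 bright probe sets 234 were called (1.42%), 173 lower (1.05%) and 61 higher (0.369%) in jmj24. Of the 6229 probe sets that were not bright 25 were called (0.401%), 16 of them lower (0.257%). Over all probe sets the calls numbered 259 (1.14%), 189 of them lower (0.831%). Falls were also larger: the median log2 difference of the called probe sets was -0.75 for falls and 0.54 for rises, while that of all bright probe sets was -0.00498. A change of at least 2-fold was reached by 44 of the falls and 5 of the rises, and 49 falls and 38 rises were smaller than 1.5-fold. On all 234 the 3 jmj24 arrays lay to one side of the 3 WT arrays, which held for 18.9% of all bright probe sets and 8.25% of those that were not bright. The plot of difference against brightness shows where on the scale these calls lie.

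**Figure D1:**
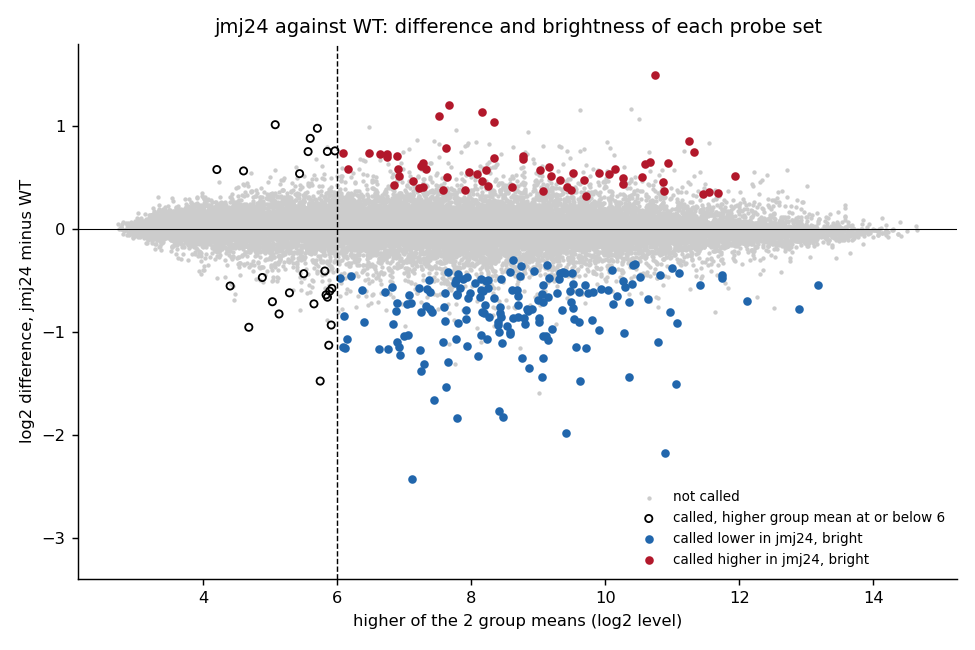
Each point is 1 probe set, with the higher of the jmj24 and WT means (log2 level) on the x axis and the log2 difference, jmj24 minus WT, on the y axis. Blue points are the 173 bright calls lower in jmj24, red points the 61 bright calls higher in jmj24, open circles the 25 calls at or below the dashed line at 6, and grey points were not called.

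The bright calls were spread over the whole scale, and those above a level of 11 were called in the smallest share. The share called was 1.15% for levels from 6 to 7, 1.83% from 7 to 8, 1.72% from 8 to 9, 1.56% from 9 to 10 and 1.36% from 10 to 11. Above 11 it was 0.622%, or 15 of 2410 probe sets. The median fall among called probe sets was -0.91 in the lowest of these bands and -0.55 in the highest. The median SE of all probe sets was 0.117 in the lowest band and 0.0681 in the highest. A larger change was thus needed for a call in the lowest band, and the medians do not show that dimmer transcripts fell more.

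These counts depend on the arrays in the fit. On the main component of the variation within genotypes, which holds 40.1% of it, the arrays numbered 1 scored lowest in each genotype (-15.2 in jmj24, -13.2 in 35S::JMJ24 and -18.9 in WT), and WT 3 scored highest (17.5). Without the 3 arrays numbered 1, 52 bright probe sets were called, of which 47 were among the 234. With 1 array left out at a time the count lay between 111 (without WT 2) and 210. It was 145 without WT 1, 146 without WT 3, 130 without jmj24 2, 126 without jmj24 3, and 135 with the 35S::JMJ24 arrays left out of the fit. Of the 234 calls, 88 held whichever array was left out, 76 falls and 12 rises. Of the 234, 0 changed direction in any of the 16 other fits, 1 of which (without the dimmer 50% of probe sets) measured 141 of them. Since the jmj24 and WT arrays did not overlap on any of the 234, leaving out or reweighting arrays could not have reversed a direction. The lack of reversals therefore adds no support.

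**Figure D2:**
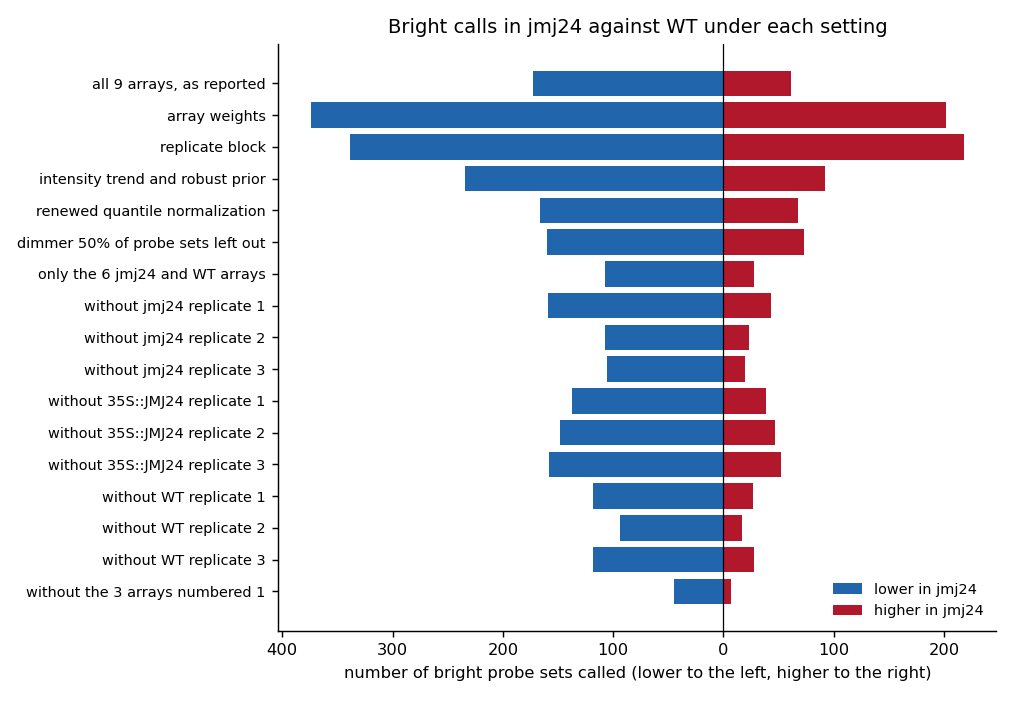
Bars give the number of bright probe sets called lower in jmj24 (blue, to the left) and higher in jmj24 (red, to the right) under each setting on the y axis. The fit reported here has 173 lower and 61 higher calls, the setting without the 3 arrays numbered 1 has 45 and 7, and falls outnumber rises in each bar.

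Of the 234 bright calls 125 stand for a single locus each, 6 are paired with more than 1 gene, and 103 have no name in the annotation. The single loci are 1.38% of 9032 bright named loci, with 95 falls (1.05%) and 30 rises (0.332%). Of these, 86 loci could be placed in 11 groups by what their protein family is known to do, 67 that fell and 19 that rose. This grouping was made after the values were seen and covers called loci only, so it gives no share of a function that responds. The split to read each group against is that of all 125 loci.

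**Figure D3:**
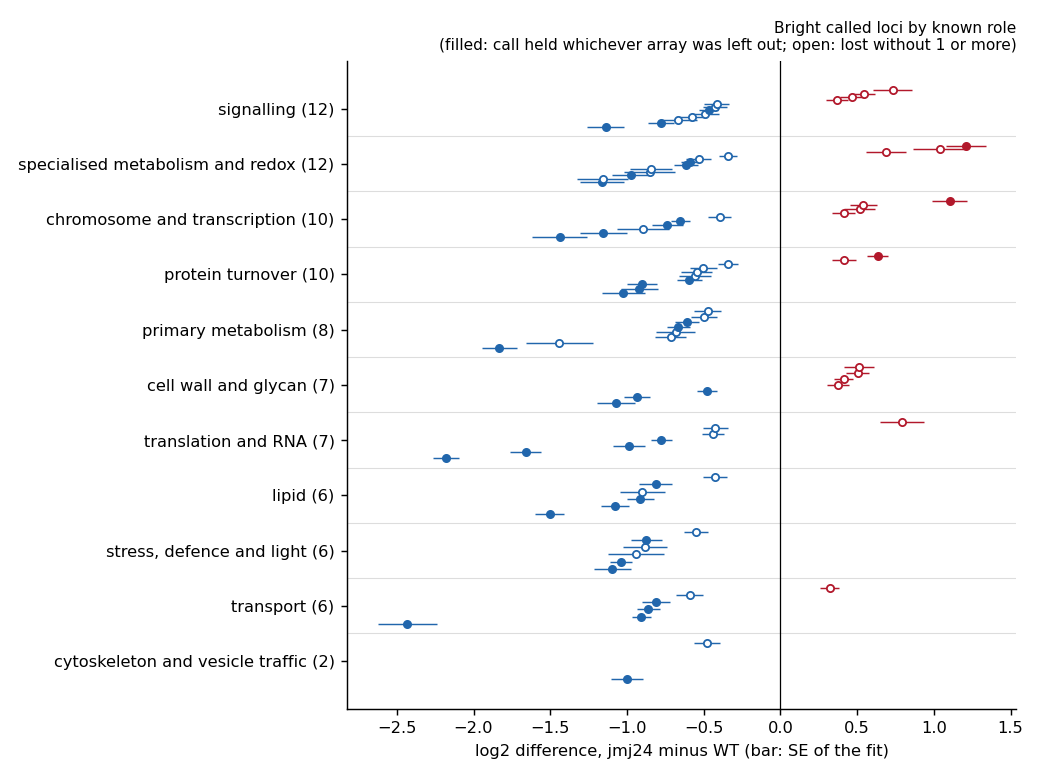
Each point is 1 of the 86 bright called loci with a known role, at its log2 difference, jmj24 minus WT, with the standard error of the fit as a bar, and the number of loci in each group in brackets. Filled points kept their call whichever of the 9 arrays was left out and open points lost it without at least 1 array, and blue falls outnumber red rises in each group except cell wall and glycan (3 falls and 4 rises).

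Genes of protein synthesis and RNA handling held 7 of the called loci, 6 that fell and 1 that rose. MAP1B (AT3G25740), an enzyme that removes the first methionine of new proteins, had levels of 8.61, 8.90 and 8.64 on the jmj24 arrays, against 10.95, 10.90 and 10.84 on the WT arrays. The groups lay far apart, with 22.1% of the WT signal left in jmj24 (log2 difference -2.18, SE 0.0839, adjusted p = 1.15e-05). AT2G40570, of the family that modifies the initiator transfer RNA, had 5.85, 5.77 and 5.73 in jmj24, against 7.54, 7.45 and 7.35 in WT (log2 difference -1.66, SE 0.103, adjusted p = 0.000155). Its jmj24 level lies at the brightest bacterial control, which leaves the size of the fall uncertain.

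AT4G38020, of a family of enzymes that methylate transfer or ribosomal RNA, averaged 8.13 ± 0.069 in jmj24 and 8.91 ± 0.079 in WT (mean ± SD, n = 3 each, here and below), a difference of -0.78, adjusted p = 0.00137. AT4G13860, which carries an RNA recognition motif, had 8.85, 9.08 and 8.83 in jmj24, against 9.78, 10.00 and 9.94 in WT (-0.99, adjusted p = 0.00309). Smaller falls were seen in AT1G14210, a ribonuclease of the T2 type (-0.44, adjusted p = 0.0219), and in AT2G47020, a peptide chain release factor, which frees the finished protein from the ribosome (-0.42, adjusted p = 0.0477). AT5G01940, of a translation initiation factor family, rose (0.79, adjusted p = 0.0349). The calls of MAP1B, AT2G40570, AT4G38020 and AT4G13860 held whichever array was left out. AT1G14210 lost its call if any array but jmj24 3, 35S::JMJ24 1, 35S::JMJ24 2 and 35S::JMJ24 3 was left out (highest adjusted p 0.097), AT2G47020 if any array but 35S::JMJ24 2 and 35S::JMJ24 3 was left out (highest adjusted p 0.183) and AT5G01940 if any array but jmj24 2 and 35S::JMJ24 2 was left out (highest adjusted p 0.146).

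Transporters and related proteins held 6 called loci, 5 that fell and 1 that rose, and 3 of the falls were in sugar transporter families. AT4G04750, a member of the major facilitator sugar transporters, had 5.02, 4.72 and 4.33 in jmj24, against 7.17, 7.33 and 6.86 in WT (log2 difference -2.43, SE 0.192, adjusted p = 0.000557). All 3 jmj24 values lie below the brightest bacterial control, which leaves the size of the fall uncertain. SFP2 (AT5G27360), a relative of the same family, had 8.29, 8.04 and 8.13 in jmj24, against 9.11, 8.97 and 8.96 in WT (log2 difference -0.86, SE 0.0768, adjusted p = 0.00137). SWEET16 (AT3G16690), a sugar carrier of the vacuole membrane, averaged 8.02 ± 0.12 in jmj24 and 8.61 ± 0.14 in WT (-0.59, adjusted p = 0.0131). Its call was lost without jmj24 2 or WT 2 (highest adjusted p 0.0544).

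AT5G19500, of the tryptophan and tyrosine permease family, had 8.19, 8.06 and 8.08 in jmj24, against 9.05, 9.00 and 9.00 in WT (log2 difference -0.91, SE 0.0599, adjusted p = 0.000178). In the 35S::JMJ24 line, which was compared with the same WT arrays, its log2 difference was -0.40 and did not pass (adjusted p = 0.171). AT1G51090, which carries a heavy metal binding domain, fell as well, with 7.33, 7.47 and 7.26 in jmj24, against 8.30, 8.17 and 8.01 in WT (-0.81, adjusted p = 0.00401). AT1G51610, of the cation efflux family, rose by a small amount (0.32, adjusted p = 0.0477). The calls of AT4G04750, SFP2, AT5G19500 and AT1G51090 held whichever array was left out, and that of AT1G51610 was lost without any 1 of the 9 arrays (highest adjusted p 0.186).

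Genes of primary metabolism held 8 called loci, and all 8 fell, where 95 of all 125 called loci fell. AT3G60180, a predicted UMP-CMP kinase, which adds a phosphate to the pyrimidine nucleotides used for RNA and DNA, had 6.54, 6.80 and 6.59 in jmj24, against 8.29, 8.61 and 8.53 in WT (log2 difference -1.83, SE 0.116, adjusted p = 0.000155). This left 28.1% of the WT signal. AT1G08310, of the alpha/beta-hydrolase superfamily, varied more, at 7.60, 7.23 and 8.04 in jmj24, against 8.76, 9.33 and 9.10 in WT (log2 difference -1.44, SE 0.217, adjusted p = 0.0146). AT3G44510, of the same superfamily, fell less (-0.72, adjusted p = 0.0118). The place of both in this group is a choice, since only their superfamily is given. A second probe set of AT3G44510 read -0.09 and did not pass (adjusted p = 0.85), at 5.68 in its higher group.

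OASA2 (AT3G22460), of the enzyme family that makes cysteine, averaged 9.96 ± 0.092 in jmj24 and 10.64 ± 0.28 in WT (-0.68, adjusted p = 0.0448). VTC4 (AT3G02870), a phosphatase of the main route to vitamin C, averaged 11.27 ± 0.069 in jmj24 and 11.75 ± 0.13 in WT (-0.47, adjusted p = 0.0384). SR (AT4G11640), a serine racemase, fell by 0.50 (adjusted p = 0.0271), AT4G29270, of an acid phosphatase family, by 0.66 (adjusted p = 0.00401), and AT5G09290, of the inositol monophosphatase family, by 0.61 (adjusted p = 0.00642). The calls of AT3G60180, AT4G29270 and AT5G09290 held whichever array was left out. AT1G08310 lost its call without WT 2 or WT 3 (highest adjusted p 0.072), AT3G44510 without jmj24 2 (highest adjusted p 0.0534) and SR if any array but 35S::JMJ24 1, 35S::JMJ24 2, 35S::JMJ24 3 and WT 2 was left out (highest adjusted p 0.0881). OASA2 lost it if any array but WT 1 was left out (highest adjusted p 0.168) and VTC4 if any array but 35S::JMJ24 1 and WT 3 was left out (highest adjusted p 0.159).

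Lipid genes held 6 called loci, and all 6 fell, where 95 of all 125 called loci fell. AT2G46910, a plastid lipid-associated protein of the fibrillin family, which sits in lipid droplets and membranes of chloroplasts, had 9.56, 9.41 and 9.68 in jmj24, against 11.10, 11.04 and 11.01 in WT (log2 difference -1.503, SE 0.0936, adjusted p = 0.000155). Both AT4G10060 and AT1G07380 belong to enzyme families of sphingolipid breakdown. AT4G10060, an enzyme of the glucosylceramidase type, which splits glucose from ceramide, had 10.28, 10.01 and 10.20 in jmj24, against 11.22, 10.999 and 11.001 in WT (log2 difference -0.91, SE 0.0883, adjusted p = 0.00171). AT1G07380, a neutral ceramidase, which releases the fatty acid from ceramide, averaged 8.97 ± 0.066 in jmj24 and 9.40 ± 0.041 in WT (-0.43, adjusted p = 0.0385).

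AT1G23120, with the lipid-binding fold of the major latex proteins, had 8.16, 7.90 and 8.12 in jmj24, against 9.11, 9.06 and 9.26 in WT (-1.08, adjusted p = 0.000935). AT1G23140, which carries a lipid-binding C2 domain, lies 2 genes away from it on chromosome 1 and fell too, with 7.43, 7.23 and 7.85 in jmj24, against 8.24, 8.61 and 8.37 in WT (-0.90, adjusted p = 0.0217). ARV2 (AT4G01510), a relative of the yeast Arv1 protein of sterol and sphingolipid handling, had 7.499, 7.15 and 7.49 in jmj24, against 8.05, 8.19 and 8.34 in WT (-0.81, adjusted p = 0.00726). The calls of AT2G46910, AT4G10060, AT1G23120 and ARV2 held whichever array was left out. AT1G23140 lost its call without jmj24 1, jmj24 2, WT 2 or WT 3 (highest adjusted p 0.0961) and AT1G07380 if any array but 35S::JMJ24 2 and 35S::JMJ24 3 was left out (highest adjusted p 0.147).

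**Figure D4:**
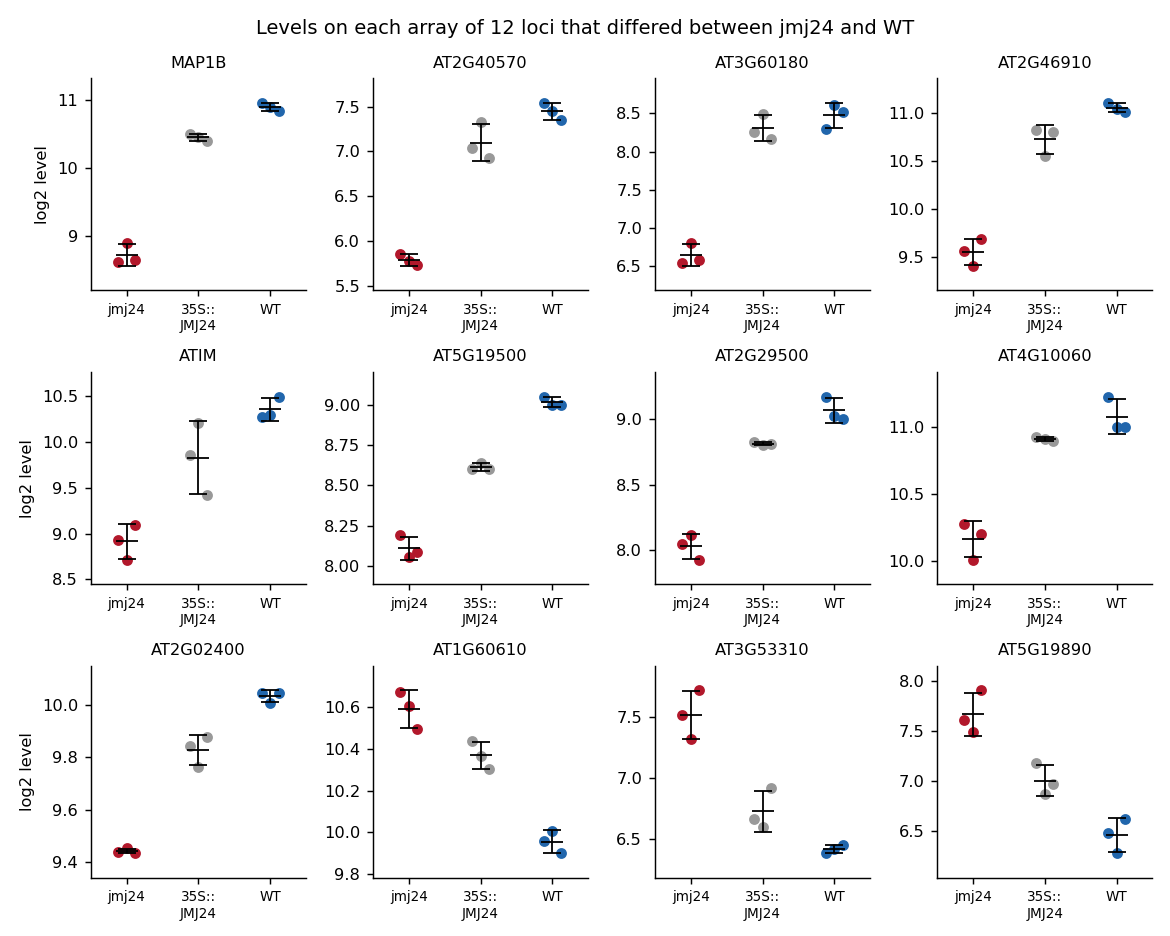
Each panel gives the log2 level of 1 locus on each array, with jmj24 (red), 35S::JMJ24 (grey) and WT (blue) on the x axis, and black bars for the mean and SD of 3 arrays. In 9 panels the jmj24 arrays lie below the WT arrays, and in those of AT1G60610, AT3G53310 and AT5G19890 they lie above them. As on all 234 bright calls, no panel shows an overlap between the jmj24 and WT arrays.

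Genes of chromosomes and transcription held 10 called loci, 6 that fell and 4 that rose. ATIM (AT5G52910), related to the Timeless protein that animals use in DNA replication and sister chromatid cohesion, had 8.93, 8.72 and 9.10 in jmj24, against 10.28, 10.30 and 10.50 in WT (log2 difference -1.44, SE 0.18, adjusted p = 0.00601). In 35S::JMJ24 its arrays spread widely, at 9.86, 10.21 and 9.42. AT3G53370, a small DNA-binding protein of the S1FA type, had 8.07, 7.98 and 8.08 in jmj24, against 8.70, 8.67 and 8.72 in WT (log2 difference -0.65, SE 0.0623, adjusted p = 0.00171). This was a fall of modest size with little spread.

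BZIP24 (AT3G51960), a basic leucine zipper factor known for its part in the response to salt, fell by 0.74 (adjusted p = 0.00983). AGL42 (AT5G62165), a MADS-domain factor known for its part in the transition to flowering, had 6.88, 6.52 and 6.74 in jmj24, against 7.78, 7.201 and 7.84 in WT (-0.89, adjusted p = 0.046). AT3G06160, of the plant B3-domain family of DNA-binding proteins, had 5.12, 5.10 and 4.69 in jmj24, against 6.23, 5.90 and 6.24 in WT (-1.15, adjusted p = 0.00782), so its jmj24 levels lie below the brightest bacterial control. AT5G09850, with a domain shared by Mediator and transcription elongation factors, fell by 0.40 (adjusted p = 0.0385). The other B3-domain locus called, AT3G53310, rose, with 7.52, 7.32 and 7.72 in jmj24, against 6.38, 6.41 and 6.45 in WT (log2 difference 1.10, SE 0.112, adjusted p = 0.00251).

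ULT1 (AT4G28190), a SAND-domain protein known in Arabidopsis to limit floral stem cells and to oppose Polycomb repression, averaged 9.90 ± 0.16 in jmj24 and 9.36 ± 0.028 in WT (0.54, adjusted p = 0.0236). It rose in jmj24. bZIP52 (AT1G06850), another basic leucine zipper factor, rose by 0.52 (adjusted p = 0.0471), and AT1G53690, of a family of small RNA polymerase subunits, by 0.41 (adjusted p = 0.0426). The calls of ATIM, AT3G06160, BZIP24, AT3G53370 and AT3G53310 held whichever array was left out. ULT1 lost its call if any array but jmj24 1, 35S::JMJ24 1, 35S::JMJ24 2 and 35S::JMJ24 3 was left out (highest adjusted p 0.105) and AGL42 if any array but WT 2 was left out (highest adjusted p 0.164). bZIP52 lost it if any array but 35S::JMJ24 3 and WT 3 was left out (highest adjusted p 0.176), AT1G53690 if any array but jmj24 2 was left out (highest adjusted p 0.165) and AT5G09850 without any 1 of the 9 arrays (highest adjusted p 0.156).

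Enzymes of specialised metabolism and redox proteins held 12 called loci, 9 that fell and 3 that rose. CYP71B24 (AT3G26230) and CYP71B6 (AT2G24180) are cytochrome P450 enzymes of one subfamily. CYP71B24 had 5.63, 5.50 and 5.64 in jmj24, against 6.67, 6.48 and 7.11 in WT (log2 difference -1.16, SE 0.144, adjusted p = 0.00553), with a jmj24 level below the brightest bacterial control. CYP71B6 averaged 10.07 ± 0.037 in jmj24 and 10.42 ± 0.047 in WT (-0.34, adjusted p = 0.0271). BGLU45 (AT1G61810), a beta-glucosidase known to release lignin precursors from their glucosides, averaged 7.37 ± 0.04 in jmj24 and 7.99 ± 0.079 in WT (-0.62, adjusted p = 0.00616).

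A pair of reductase-like genes of the families that hold the lignin enzymes fell. AT2G02400, of the cinnamoyl-CoA reductase type, had 9.44, 9.45 and 9.44 in jmj24, against 10.05, 10.01 and 10.05 in WT (log2 difference -0.59, SE 0.0569, adjusted p = 0.00171). AT1G09500, of the cinnamyl alcohol dehydrogenase type, had 7.93, 8.40 and 8.36 in jmj24, against 9.21, 9.15 and 9.26 in WT (log2 difference -0.97, SE 0.121, adjusted p = 0.00565).

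The SABATH methyltransferases, which put methyl groups on small acids such as salicylate and jasmonate, had 2 members among the falls. AT5G38020 had 8.95, 8.57 and 8.16 in jmj24, against 9.70, 9.79 and 9.66 in WT (-1.16, adjusted p = 0.0119). AT5G38780 had 5.28, 5.08 and 5.39 in jmj24, below the brightest bacterial control, against 6.43, 5.93 and 5.93 in WT (-0.84, adjusted p = 0.0228). Among oxygenases, AT3G60290 had 7.44, 7.30 and 7.52 in jmj24, against 8.09, 8.38 and 8.34 in WT (-0.85, adjusted p = 0.049), and AT1G12010, of the type that forms ethylene, fell by 0.53 (adjusted p = 0.0146). The peroxidase AT5G19890, of the secreted class that acts on cell walls, rose, with 7.61, 7.49 and 7.91 in jmj24, against 6.48, 6.28 and 6.63 in WT (log2 difference 1.21, SE 0.131, adjusted p = 0.00309). AT1G78450, of the SOUL heme-binding family, had 7.94, 8.49 and 8.57 in jmj24, against 7.45, 7.26 and 7.18 in WT (1.04, adjusted p = 0.0278), and AT1G06830, a glutaredoxin, rose by 0.69 (adjusted p = 0.0444).

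Of these 12 calls, those of CYP71B24, BGLU45, AT2G02400, AT1G09500 and AT5G19890 held whichever array was left out. AT5G38020 lost its call without jmj24 2 or WT 2 (highest adjusted p 0.0616), AT5G38780 without jmj24 1, jmj24 2 or jmj24 3 (highest adjusted p 0.0957) and AT1G12010 without jmj24 3, WT 1 or WT 2 (highest adjusted p 0.0754). CYP71B6 lost it if any array but 35S::JMJ24 1, 35S::JMJ24 2 and 35S::JMJ24 3 was left out (highest adjusted p 0.117), AT3G60290 if any array but 35S::JMJ24 2 and 35S::JMJ24 3 was left out (highest adjusted p 0.183), AT1G78450 if any array but jmj24 1, 35S::JMJ24 1 and 35S::JMJ24 3 was left out (highest adjusted p 0.117) and AT1G06830 if any array but jmj24 1, 35S::JMJ24 2 and 35S::JMJ24 3 was left out (highest adjusted p 0.167).

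Signalling genes held 12 called loci, 8 that fell and 4 that rose. Of 3 receptor kinases with leucine-rich repeats, AT3G46370 fell, with 6.98, 6.69 and 6.72 in jmj24, against 8.11, 7.84 and 7.85 in WT (log2 difference -1.14, SE 0.122, adjusted p = 0.00309). AT1G07650, a bright transcript, fell, averaging 10.68 ± 0.15 in jmj24 and 11.11 ± 0.028 in WT (-0.43, adjusted p = 0.0349). AT4G29990 rose (0.73, adjusted p = 0.0302), with a WT level of 5.91. Members of this family were called in both directions.

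Both called protein phosphatases belong to type 2C, and both fell. AT3G05640 had 8.20, 7.99 and 7.97 in jmj24, against 8.89, 8.85 and 8.75 in WT (log2 difference -0.78, SE 0.084, adjusted p = 0.00309), and AT3G16800 fell by 0.49 (adjusted p = 0.0313). Among kinases without repeats, WNK9 (AT5G28080) fell by 0.67 (adjusted p = 0.0376) and AT3G15890 by 0.47 (adjusted p = 0.00704). The kinases AT3G19100 (0.54, adjusted p = 0.00983), AT1G64300 (0.47, adjusted p = 0.0292) and AT1G61590 (0.37, adjusted p = 0.04999) rose. RALFL18 (AT2G33130), a small secreted signalling peptide, fell by 0.58 (adjusted p = 0.0313), and AT4G26470, a calcium-binding EF-hand protein, by 0.41 (adjusted p = 0.0483).

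The calls of AT3G46370, AT3G05640 and AT3G15890 held whichever array was left out, and AT3G19100 lost its call without WT 2 (highest adjusted p 0.0528). The other 8 each lost it without 6 or more of the 9 arrays. These were AT1G07650 (0.136 as the highest adjusted p), AT4G29990 (0.131), AT3G16800 (0.117), WNK9 (0.14), AT1G64300 (0.123), AT1G61590 (0.187), RALFL18 (0.127) and AT4G26470 (0.173).

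Genes of protein turnover held 10 called loci, 8 that fell and 2 that rose. SINA2 (AT3G13672), a relative of the seven-in-absentia ubiquitin ligases, had 6.92, 7.15 and 7.27 in jmj24, against 8.37, 8.04 and 8.01 in WT (log2 difference -1.03, SE 0.14, adjusted p = 0.00874). The TRAF-like loci AT1G65370 (-0.90, adjusted p = 0.00308) and AT5G26260 (-0.34, adjusted p = 0.0462) fell. AT1G65370 had 8.89, 8.60 and 8.63 in jmj24, against 9.62, 9.58 and 9.63 in WT.

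The F-box type loci, whose proteins pick the targets of ubiquitin ligases, comprised AT5G03970 (-0.59, adjusted p = 0.00782), AT1G78750 (-0.56, adjusted p = 0.0428) and AT2G04230 (-0.50, adjusted p = 0.0342), and all 3 fell. Among proteases, the subtilase AT5G44530 had 8.07, 7.86 and 7.73 in jmj24, against 8.97, 8.75 and 8.70 in WT (-0.92, adjusted p = 0.00661), and scpl20 (AT4G12910), a serine carboxypeptidase-like protein, fell by 0.55 (adjusted p = 0.0382). The RING-type loci AT1G60610 and AT4G22250 rose. AT1G60610 had 10.67, 10.60 and 10.49 in jmj24, against 9.96, 10.01 and 9.90 in WT (log2 difference 0.63, SE 0.0698, adjusted p = 0.00339), and AT4G22250 rose by 0.41 (adjusted p = 0.0476).

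The calls of SINA2, AT1G65370, AT5G03970, AT5G44530 and AT1G60610 held whichever array was left out. AT2G04230 lost its call if any array but jmj24 1, 35S::JMJ24 1 and 35S::JMJ24 3 was left out (highest adjusted p 0.126) and AT1G78750 if any array but jmj24 1 was left out (highest adjusted p 0.168). AT5G26260 lost it if any array but WT 1 was left out (highest adjusted p 0.178), scpl20 if any array but jmj24 1 was left out (highest adjusted p 0.145) and AT4G22250 without any 1 of the 9 arrays (highest adjusted p 0.173).

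Genes of the cell wall and of glycans held 7 called loci, 3 that fell and 4 that rose. The falls were in enzymes that build or modify glycans. AT1G53100, of a branching glycosyltransferase family, had 6.54, 6.85 and 6.71 in jmj24, against 7.84, 7.81 and 7.67 in WT (log2 difference -1.07, SE 0.121, adjusted p = 0.00375). AT2G43200, a putative methyltransferase, had 7.64, 7.33 and 7.43 in jmj24, against 8.34, 8.46 and 8.40 in WT (log2 difference -0.93, SE 0.0851, adjusted p = 0.00141), on a probe set of the type that can match related genes. AT3G06440, of a galactosyltransferase family, fell by 0.48 (adjusted p = 0.00817).

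The 4 rises lay between 0.37 and 0.51. They comprised AT1G20550, of the O-fucosyltransferase family (0.50, adjusted p = 0.0123), AT3G07320, of a family of beta-glucanases (0.51, adjusted p = 0.0419), AT4G34215, a carbohydrate esterase (0.41, adjusted p = 0.0133), and AT5G09480, a hydroxyproline-rich glycoprotein (0.37, adjusted p = 0.04999). The calls of the 3 falls held whichever array was left out. AT1G20550 lost its call without WT 2 or WT 3 (highest adjusted p 0.0619), AT4G34215 without jmj24 2, WT 2 or WT 3 (highest adjusted p 0.0727), AT3G07320 if any array but 35S::JMJ24 2 and 35S::JMJ24 3 was left out (highest adjusted p 0.164) and AT5G09480 without any 1 of the 9 arrays (highest adjusted p 0.166).

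Genes of stress, defence and light responses held 6 called loci, and all 6 fell, where 95 of all 125 called loci fell. AT2G29500, a small heat shock protein, which keeps other proteins from clumping in heat, had 8.05, 8.12 and 7.93 in jmj24, against 9.17, 9.03 and 9.00 in WT (log2 difference -1.04, SE 0.0722, adjusted p = 0.000255). FHL (AT5G02200), which helps to carry the far-red light receptor phytochrome A into the nucleus, had 5.95, 5.60 and 5.82 in jmj24, against 6.65, 7.07 and 6.94 in WT (log2 difference -1.10, SE 0.122, adjusted p = 0.00354). Its jmj24 mean of 5.79 lies just below the brightest bacterial control, and the size of its fall is uncertain. AT5G08480, a protein with a VQ motif, of a family that binds WRKY factors, had 7.17, 6.93 and 7.06 in jmj24, against 8.004, 8.07 and 7.71 in WT (-0.87, adjusted p = 0.00401). The PR-1-like AT4G07820 had 8.75, 8.92 and 9.07 in jmj24, against 9.61, 9.79 and 9.99 in WT (-0.88, adjusted p = 0.0234), and the defensin-like AT2G43550 fell by 0.55 (adjusted p = 0.0118). As on all 234 bright calls, and on 18.9% of all bright probe sets, the jmj24 and WT arrays did not overlap for any of these 5.

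QQS (AT3G30720), a small Arabidopsis gene that acts on starch and whose expression is known to vary with DNA methylation, had 7.60, 7.29 and 7.90 in jmj24, against 8.48, 8.41 and 8.72 in WT (-0.94, adjusted p = 0.0471). Its place in the stress, defence and light group is a choice, and the keyword search below counts it under primary metabolism. The calls of AT2G29500, FHL and AT5G08480 held whichever array was left out. QQS lost its call if any array but jmj24 3 and 35S::JMJ24 3 was left out (highest adjusted p 0.148), AT4G07820 if any array but 35S::JMJ24 1, 35S::JMJ24 2, 35S::JMJ24 3 and WT 1 was left out (highest adjusted p 0.0965) and AT2G43550 without WT 2 (highest adjusted p 0.0576). Vesicle traffic and the cytoskeleton were represented by 2 falls. AT1G68110, of the clathrin-adaptor family of ENTH and ANTH proteins, had 7.48, 7.33 and 7.46 in jmj24, against 8.43, 8.54 and 8.29 in WT (-0.998, adjusted p = 0.00293), and the kinesin AT1G55550 fell by 0.48 (adjusted p = 0.0293). The kinesin averaged 5.57 in jmj24, below the brightest bacterial control, and 6.05 in WT, so the size of its change is uncertain. The first kept its call whichever array was left out and the second lost it if any array but 35S::JMJ24 3 and WT 2 was left out (highest adjusted p 0.125).

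Without the 3 arrays numbered 1, 21 of the 86 loci kept their call. They were MAP1B, AT2G40570, AT4G04750, SFP2, AT5G19500, AT3G60180, AT2G46910, AT4G10060, AT1G23120, AT5G38020, AT1G09500, AT3G46370, AT3G05640, AT1G65370, AT5G44530, AT2G43200, AT2G29500, FHL and BZIP24 among the falls, and ULT1 and AT1G78450 among the rises. The cytoskeleton and vesicle traffic group kept none, and the lipid, transport and specialised metabolism groups kept 3 each. Of the 21, some lost their call in the limma fit of the 6 jmj24 and WT arrays alone. These were BZIP24 (adjusted p = 0.0524), AT5G38020 (0.0570), AT1G78450 (0.0646) and ULT1 (0.0679).

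Of the transcripts above a level of 11, 9 were called lower and 6 higher. AT4G16146, whose protein is related to a phosphoprotein regulated by cyclic AMP in animals, was the brightest of the calls, at 12.65, 12.63 and 12.65 in jmj24, against 13.11, 13.21 and 13.21 in WT (log2 difference -0.54, SE 0.0686, adjusted p = 0.00634). AT3G24100, a small protein of unknown role, averaged 11.42 ± 0.18 in jmj24 and 12.12 ± 0.07 in WT (-0.70, adjusted p = 0.00817). Both held their call whichever array was left out, as did the fall of unnamed probe set 266353_at (-0.77, adjusted p = 0.00506). The unnamed probe sets 261039_at (0.86, adjusted p = 0.00644) and 254818_at (0.75, adjusted p = 0.00293) rose and kept their calls too. These 5 were chosen after their values were seen.

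The 39 called loci with no role given, 28 that fell and 11 that rose, include 4 annotated as pseudogenes. AT1G43590 fell in jmj24, at 8.13, 8.21 and 8.09, against 9.63, 9.59 and 9.65 in WT (log2 difference -1.48, SE 0.078, adjusted p = 7.84e-05), and AT2G11140 fell by 0.63 (adjusted p = 0.0108). AT3G21020 (0.74, adjusted p = 0.00397) and AT1G27285 (0.74, adjusted p = 0.0179) rose, from probe sets whose WT levels (5.74 and 5.35) lie below the brightest bacterial control. Another locus of no given role, AT4G37900, had 6.63, 6.91 and 6.69 in jmj24, against 5.98, 5.99 and 6.18 in WT (0.70, adjusted p = 0.00602). AT2G11140 lost its call without WT 2 (highest adjusted p 0.0582) and AT1G27285 without jmj24 2, WT 1 or WT 2 (highest adjusted p 0.0701).

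The 103 unnamed bright calls comprise 73 falls and 30 rises. By size, the first was 264649_at, with 7.33, 7.34 and 7.60 in jmj24, 11.39, 11.26 and 11.20 in 35S::JMJ24 and 9.44, 9.24 and 9.56 in WT. It was lower in jmj24 (log2 difference -1.99, SE 0.106, adjusted p = 7.84e-05) and higher in 35S::JMJ24 (1.87, adjusted p = 0.000204). Probe set 264041_at followed, with 6.71, 6.82 and 6.39 in jmj24, against 8.45, 8.32 and 8.45 in WT (log2 difference -1.77, SE 0.103, adjusted p = 0.000129). Probe set 255459_at rose, with 11.003, 10.64 and 10.60 in jmj24, against 9.39, 9.37 and 8.99 in WT (log2 difference 1.5, SE 0.145, adjusted p = 0.00171), and read 1.59 in 35S::JMJ24 against the same WT arrays.

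The other 7 unnamed probe sets among the 10 of largest difference all fell. Probe set 266015_at had 6.41, 6.10 and 5.75 in jmj24, against 7.99, 7.54 and 7.34 in WT (-1.54, adjusted p = 0.00505). Probe set 250589_at had 5.93, 5.94 and 5.73 in jmj24, against 7.43, 7.34 and 6.97 in WT (-1.38, adjusted p = 0.0176). For both, every jmj24 array lay below every WT array, and all 234 bright calls likewise showed no overlap. Probe set 250199_at had 7.25, 7.65 and 7.65 in jmj24, against 8.70, 8.69 and 9.19 in WT (-1.35, adjusted p = 0.00573), and 255437_at had 6.46, 6.03 and 5.48 in jmj24, against 7.61, 7.32 and 6.98 in WT (-1.31, adjusted p = 0.0442). Probe set 248197_at had 7.70, 7.13 and 7.69 in jmj24, against 8.64, 8.85 and 8.79 in WT (-1.25, adjusted p = 0.0119). These 3, like every bright call, did not overlap either. Probe set 262369_at had 5.57, 5.75 and 5.82 in jmj24, against 7.10, 7.10 and 6.62 in WT (-1.23, adjusted p = 0.00484), and 249091_at had 5.97, 6.24 and 5.95 in jmj24, against 7.53, 7.26 and 6.90 in WT (-1.17, adjusted p = 0.012). The jmj24 mean of 262369_at, 5.71, lies below the brightest bacterial control, and the size of its fall is uncertain. Probe set 250589_at lost its call without jmj24 2, jmj24 3, WT 1 or WT 2 (highest adjusted p 0.0861), 255437_at if any array but jmj24 1 was left out (highest adjusted p 0.155), 248197_at without WT 2 (highest adjusted p 0.0616) and 249091_at without jmj24 3 or WT 2 (highest adjusted p 0.0603). On 266015_at the 3 arrays of 35S::JMJ24 hold one identical value, as they do on AT4G30630, which rose (0.48, adjusted p = 0.00408). Fitted on the 6 jmj24 and WT arrays alone, both kept their calls (adjusted p = 0.0351 and 0.0246).

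In 35S::JMJ24 4 bright probe sets were called against the same WT arrays (0.0242%), and all 4 are among the 234. Beside 264649_at and 255459_at they are the pseudogene AT1G43590 (-1.48 in jmj24 and -2.14 in 35S::JMJ24) and the unnamed 261927_at (-0.56 in jmj24 and -0.55 in 35S::JMJ24). A difference between the lines was not tested. Other loci, with their log2 difference from WT in each line, are MAP1B (-2.18 in jmj24 and -0.45 in 35S::JMJ24), AT3G60180 (-1.83 in jmj24 and -0.17 in 35S::JMJ24), AT2G46910 (-1.503 in jmj24 and -0.33 in 35S::JMJ24), AT1G23120 (-1.08 in jmj24 and -0.01 in 35S::JMJ24), AT3G05640 (-0.78 in jmj24 and 0.16 in 35S::JMJ24) and AT3G53310 (1.10 in jmj24 and 0.31 in 35S::JMJ24). Closer values in both lines were read for AT3G21020 (0.74 in jmj24 and 0.69 in 35S::JMJ24), AT1G64300 (0.47 in jmj24 and 0.45 in 35S::JMJ24), AT4G07820 (-0.88 in jmj24 and -0.69 in 35S::JMJ24) and AT4G29990 (0.73 in jmj24 and 0.64 in 35S::JMJ24), which were not called in 35S::JMJ24 (adjusted p from 0.0573 to 0.369). Small rises were also close in both lines for AT1G61590 (0.37 in jmj24 and 0.42 in 35S::JMJ24), AT5G09480 (0.37 in jmj24 and 0.35 in 35S::JMJ24) and AT1G51610 (0.32 in jmj24 and 0.24 in 35S::JMJ24). None of these was called in 35S::JMJ24 (limma adjusted p = 0.264, 0.369 and 0.478). All of these examples were chosen after their values were seen.

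Chromosomes 1 to 5 had similar shares of bright loci called, between 1.36% and 1.49%, and 0 of 69 bright plastid-encoded loci were called (limma). In the gene order of the RefSeq annotation, 4 pairs of called loci lay within 10 genes of each other. How many pairs lie this close among as many loci drawn at random was not counted, so the 4 show no link between neighbours. AT2G46910 and AT2G46915 are direct neighbours and both fell (-1.503 and -0.80). AT1G23120 and AT1G23140 both fell, and AT1G06830 and AT1G06850 (bZIP52) both rose, each pair 2 genes apart. AT3G53310 and AT3G53370, 8 genes apart, went opposite ways. Within 100 genes of JMJ24, the called loci were AT1G08310, 88 genes before it, and AT1G09500, 55 genes after it. The bright loci of this window were not counted, so no share called can be given, and a local effect was not tested. AT2G46915, of unknown role, lost its call without jmj24 1, jmj24 3, WT 1 or WT 3 (highest adjusted p 0.0789).

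A search of gene symbols and synonyms for words of function could place 613 of the 9032 bright loci, 11 of which were called (10 lower and 1 higher). The share called among all 9032 was 1.38%, so classes of this size hold few calls or none at that share. Among 94 transcription factors so found 2 fell (AGL42 and BZIP24), 1 rose (bZIP52) and 91 did not pass, with a median log2 difference of 0.0239. Of 137 loci of redox and secondary metabolism 3 fell (CYP71B24, BGLU45 and CYP71B6), 0 rose by limma and the median was -0.0382. Of 66 loci of protein degradation 1 fell (scpl20), with a median of -0.00633, and of 63 loci of primary metabolism 2 fell (OASA2 and QQS), with a median of -0.0158. The median of all 9032 bright loci was 0.00133. ATIM was the 1 called of 6 loci of DNA replication and the cell cycle, and MAP1B the 1 called of 11 loci of translation.

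In the classes of cell wall (41 loci), chloroplast and photosynthesis (30), receptor and kinase signalling (26), stress and chaperones (23), transporters (18), defence (16) and chromatin (12), 0 loci were called by limma. At the 1.38% of all bright loci such a count says nothing particular about these classes. Their medians lay between -0.0872 for transporters and 0.069 for cell wall. The keyword classes of cytoskeleton and vesicle traffic (46 loci, median -0.0153), lipid (8, median 0.126) and RNA processing (7, median -0.0871) held 0 calls too. So did hormone response (5) and silencing and transposons (3). The keyword lipid class thus did not share the falls of the called lipid loci described above. Most of the called loci described above carry no such word in their symbols and were not counted in these classes.

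Few genes of the silencing pathways in which jumonji proteins act could be measured under a name, and of those QQS was called. Of 6 KDM3-type jumonji genes, the group that holds JMJ24 and IBM1, 4 were measured under a name, with a median of 0.0508 and 0 calls by limma. AT4G21430, also known as B160, stood at 10.27 in jmj24 and 10.15 in WT (log2 difference 0.13, SE 0.0925, adjusted p = 0.639). Among the remaining jumonji families 7 of 15 genes had a probe set (median -0.0241, 0 calls). Of 30 genes of DNA methylation 1 was measured, DME, an enzyme that cuts methylated cytosine out of DNA, which read -0.11 (SE 0.0912, adjusted p = 0.694). Of 14 loci known to be held down by silencing 9 were measured, with a median of 0.0284. Of these 9, 3 were bright (QQS, AT4G16870 and AT4G08680), and the rest stood below the brightest bacterial control in both groups, where a change could not be read. QQS was called among them. Of the other 20 measured loci of these 4 lists 0 had an unadjusted p under 0.05 (limma), against 11.7% of all probe sets and 13.7% of bright ones.

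The labelled tissue was checked against markers. RCA, the activator of the carbon-fixing enzyme Rubisco and the 1 marker of green tissue measured here, stood at 13.48 in jmj24 and 13.54 in WT. The root gene PYK10 stood at 13.50 in jmj24 and 13.58 in WT (log2 difference -0.08). All 3 measured seed storage markers were below 6, and 1 of 4 flower and pollen markers was bright, AT5G45880, at 8.74 in jmj24 and 8.80 in WT. Of 7 measured root markers 0 were called by limma and 2 had an unadjusted p under 0.05, against 11.7% of all probe sets. Their median was 0.304, against 0.00609 over all probe sets. Positive differences that did not pass were read for EXPA18 (0.46, adjusted p = 0.332), AT3G54580 (0.38, adjusted p = 0.468), AT5G17820 (0.37, adjusted p = 0.207), EXPA7 (0.30, adjusted p = 0.443) and AT4G11290 (0.18, adjusted p = 0.59), while AT2G22420 read -0.0025. Positive readings were not particular to jmj24. In 35S::JMJ24, against the same WT arrays, EXPA18 read 0.47, AT3G54580 0.37, AT5G17820 0.38, EXPA7 0.40, AT4G11290 0.30, AT2G22420 0.19 and PYK10 -0.07. The summed signal of the 7, most of which is that of PYK10, lay between 13.73 and 13.80 in jmj24 and between 13.72 and 13.84 in WT on the log2 scale. The part of root tissue in the results above was not tested.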

How the data were processed

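RNA from seedlings was hybridised to 9 ATH1 arrays, 3 per genotype, and grouped by sample title. The submitters' processing notes name the package affy for the deposited values, while its version, background correction and normalization were not given in the sources used here. No source names the scale. The deposited values lie between 2.63 and 14.7 with array medians from 7.82 to 7.87, and were read as log2 values and used unchanged. At least 2 arrays share an identical value on 40.3% of probe sets.

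After removal of 64 control probe sets, 22746 were fitted with limma 3.58.1 in R 4.3.3, with 1 mean per genotype over all 9 arrays, moderated variances (6 residual and 3.34 prior degrees of freedom) and two-sided tests, adjusted by Benjamini-Hochberg over all probe sets. The call threshold was 0.05. The number of arrays limits the precision, with a median SE of 0.0923 for the log2 differences. Names came from the platform annotation and the RefSeq gene table of TAIR10.1, which was used for names and gene order only: 13513 probe sets name 1 gene, of which 13436 matched a locus, 503 name several and 8730 are unnamed. A locus was represented by its brightest probe set. The fit was tested on simulated data with independent normal noise on each array. The simulation had no variation shared between arrays and no identical values, so it does not give the rate of false calls here.

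Up to 6 falls and 6 rises by smallest adjusted p in each keyword class, called members of fixed lists and the 10 largest unnamed calls were named by rule. Other loci were named after their values were seen. The members, classes and lists were chosen with earlier results of these data known. Alternatives were arrays left out, a fit of 6 arrays, a replicate block, renewed quantile normalization, array weights, a filter on dim probe sets, a trended prior and other marks of brightness.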

Additional observations from a re-analysis of the deposited data

How the results depend on the processing

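Fewer arrays gave fewer calls. With 1 array left out at a time, 124 to 229 probe sets were called in place of 259 (103 to 171 lower and 21 to 58 higher). Bright calls numbered 111 to 210 (94 to 159 lower and 17 to 52 higher), bright named loci 67 to 112, loci of the keyword classes 5 to 8 and members of the fixed lists 0 to 1. Without the 3 arrays numbered 1, 53 were called (46 lower and 7 higher), of which 52 were bright (45 lower and 7 higher), with 29 named loci, 2 of the keyword classes and 0 list members by limma. With only the 6 jmj24 and WT arrays, 146 were called (113 lower and 33 higher), of which 135 were bright (107 lower and 28 higher), with 75 named loci, 4 of the keyword classes and 0 list members by limma.

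With array weights 641 were called (412 lower and 229 higher), of which 576 were bright (374 lower and 202 higher), with 302 named loci and 25 of the keyword classes. The replicate block gave 607 (366 lower and 241 higher), of which 557 were bright (339 lower and 218 higher), with 280 named loci and 21 of the keyword classes. Same-numbered jmj24 and WT arrays had deviations that correlated at 0.438, 0.0577 and 0.303 for numbers 1, 2 and 3. Crossed numbers lay between -0.527 (jmj24 1 with WT 3) and 0.271 (jmj24 2 with WT 3). For number 1, 35S::JMJ24 correlated at 0.418 with WT and 0.427 with jmj24. For the other numbers it lay between 0.0143 and 0.207. The main fit did not take the numbers as pairs, and whether arrays of one number share a preparation was not tested. A trended, robust prior raised the bright rises to 92, and with renewed quantile normalization, which gave 253 calls, QQS lost its call (0 list members). Without the dimmer 50% of probe sets 233 were called (160 lower and 73 higher). The causes were not tested. Marks of brightness of 5 and 7 gave 254 and 206 bright calls. Of 100 named items, 74 lost their call without the arrays numbered 1, 40 with 6 arrays, 6 after quantile normalization, 2 with the trended prior, 1 with array weights and 0 under the block by limma. None of them changed direction in any of these fits. With jmj24 and WT arrays that do not overlap, leaving out or reweighting arrays could not have reversed them.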
